A study of Homo sapiens with 9 samples.

Results

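Phospholipases C and protein kinases C form one signalling arm, and 10 of its genes were followed across 3 related breast cancer lines. They are the 4 phospholipase C beta genes PLCB1, PLCB2, PLCB3 and PLCB4, the gamma gene PLCG1, the epsilon gene PLCE1, and the protein kinase C genes PRKCA, PRKCD, PRKCE and PRKCH. They were taken by gene symbol from the table of read counts per gene, where they are 10 of 58884 genes, and all 10 passed the filter on low counts. The lines are MDA-MB-231 (Par), a triple-negative human breast cancer cell line, and its sub-populations LM2 and BrM2, which were selected in mice for metastasis to the lung and to the brain. All were untreated cells grown in monolayer in the same serum medium for 3 days and were measured by RNA-seq, with 3 libraries per line (9 in all) harvested at different passages. Each organ is represented by 1 selected population. A property of that population and a property of metastasis to that organ therefore cannot be told apart. The p-values measure the spread between the libraries of a line, and whether that spread comes from passage was not tested.

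Phospholipase C enzymes cleave the membrane lipid PIP2 into the soluble messenger IP3, which opens calcium channels of the endoplasmic reticulum, and diacylglycerol, which stays in the membrane. The beta enzymes are switched on by receptors coupled to the Gq class of G proteins, PLC gamma 1 by receptor tyrosine kinases, and PLC epsilon 1 by small GTPases of the Ras family. Diacylglycerol recruits and activates the conventional kinase PKC alpha (PRKCA), which also needs calcium, and the calcium-independent kinases PKC delta, epsilon and eta (PRKCD, PRKCE, PRKCH). These kinases act on adhesion, motility and survival of epithelial and carcinoma cells.

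Libraries held between 14371858 (BrM2 replicate 1) and 24511786 (LM2 replicate 3) counts, and 13055 genes were tested. Expression is given as CPM, counts scaled by TMM to a common library size, and changes as log2 fold changes ± standard error (SE) of edgeR's quasi-likelihood test over all 9 libraries, with p-values adjusted over all 13055 genes and a threshold of 0.05. The libraries carrying replicate number 1 stood apart in all 3 lines. The difference of a gene between replicate 1 and replicates 2 and 3 followed its GC content, with a Spearman correlation of 0.81 across 12937 genes, which are not independent. Among the 10 genes, replicate 1 was lower by 1.41 (PLCB4), 1.33 (PLCE1) and 1.02 (PLCB1) on the log2 scale, these 3 having the lowest GC content (40.2% to 43.6%), and higher by 0.46 to 0.95 for PLCB2, PLCB3, PLCG1 and PRKCD (54.1% to 61.5%). PRKCA, PRKCE and PRKCH moved by at most 0.17. The part of GC content in the results was not tested, and results are given with the replicate number as a block, or without replicate 1, where that changes a call of the 10 genes. Of the markers of the line, VIM and CD44 were high in all libraries (at least 497 CPM) while the hormone receptors ESR1 and PGR stayed at or below 16 counts. ZEB1, a further marker of the line, ran from 18.2 to 138 CPM. It was lowest in replicate 1 of each line (26.2 CPM in Par, 31.8 in LM2 and 18.2 in BrM2). The mean of VIM was 722 CPM in Par, 1530 in LM2 and 1500 in BrM2. Of the epithelial markers, CDH1 had at most 37 counts, whereas KRT8 (305 to 1179 CPM), KRT18 (268 to 711 CPM), KRT19 (29.0 to 283 CPM) and EPCAM (55 to 202 counts) were expressed, as was ERBB2 (62.5 to 143 CPM). Of the markers of other cell types, PTPRC, CDH5, PDGFRA, DCN and SFTPC were at or near 0 (at most 6 counts), whereas CD14 (21 to 87 counts), PECAM1 (39 to 183 counts), GFAP (125 to 428 counts) and MBP (1856 to 4216 counts) were detected in all 3 lines, the brain markers GFAP and MBP at a lower mean CPM in BrM2 than in Par.

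Relative to Par, genes among the 10 rose in both sub-populations. They were PLCB1 and 3 PKC genes in LM2, and 3 PLC beta genes and 2 PKC genes in BrM2. The 10 were chosen with earlier results of these data known, so their share of calls does not stand for the arm. In LM2 vs Par, 4 of the 10 genes were higher (PLCB1, PRKCA, PRKCE, PRKCH) and 0 lower at the threshold, where 4.17% of all tested genes were higher and 4.52% lower. At an unadjusted p under 0.05 and by DESeq2, 0 of the 10 were lower too. In BrM2 vs Par, 5 were higher (PLCB1, PLCB2, PLCB4, PRKCE, PRKCH) and 0 lower, again by DESeq2 as well, against 6.25% and 7.02% of all genes. The direct comparison of BrM2 with LM2 called 3 higher (PLCB2, PLCB4, PRKCE) and 1 lower (PRKCA), against 4.11% and 3.99%. With the replicate number as a block, which raised the calls over all genes to 15.5% higher and 19.1% lower (LM2 vs Par), 19.5% and 23.2% (BrM2 vs Par), and 17.8% and 19.7% (BrM2 vs LM2), these calls all held and were joined by PLCE1 in all 3 comparisons and PRKCD in BrM2 vs Par. Without the 3 libraries of replicate 1 the genes called were 6, 7 and 5 in the same order of comparisons, where 33.1%, 40.4% and 32.6% of all genes were called in either direction. PLCB3 passed the threshold in none of these fits. Both comparisons with Par share the Par libraries, so their values are given side by side only.

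**Figure D1:**
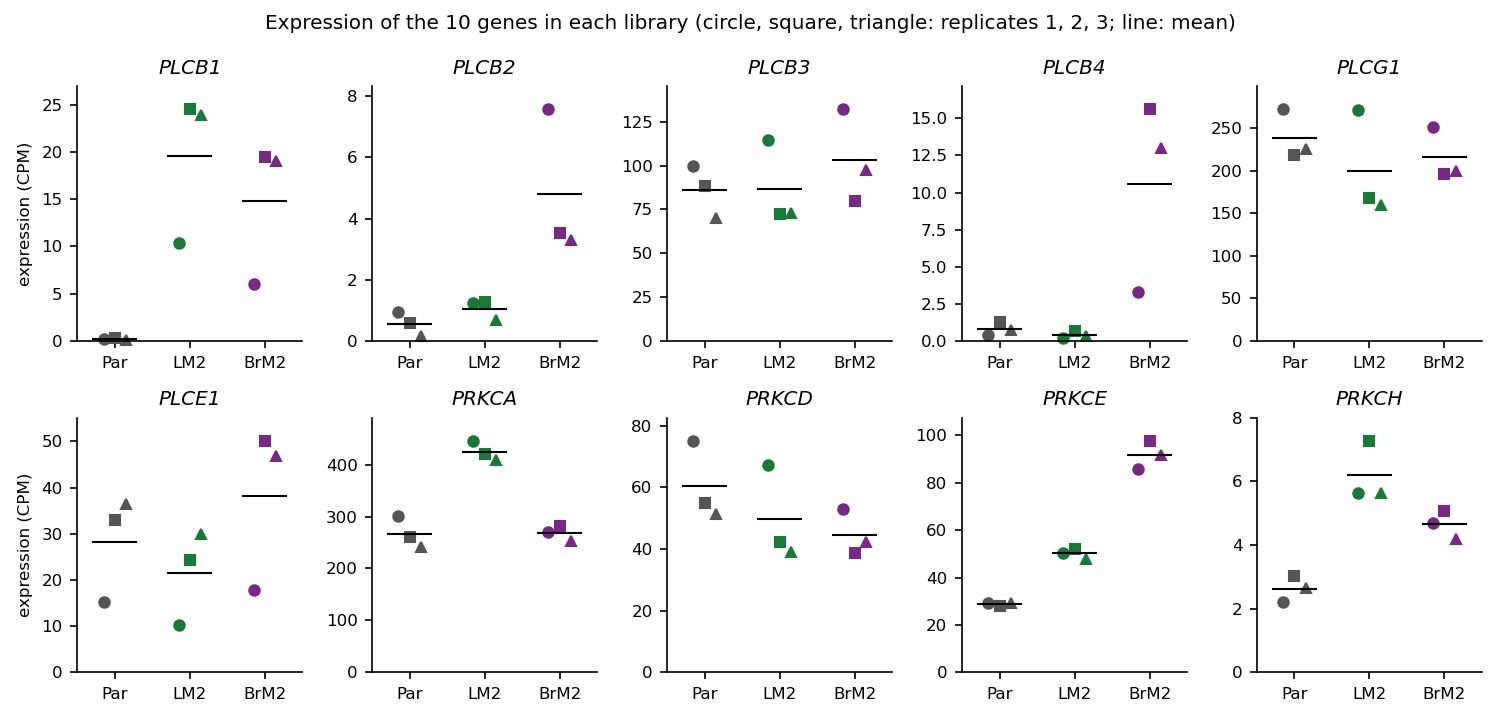
Expression (CPM, linear axis from 0, a scale of its own for each gene) of the 10 genes in the 3 lines, with 1 point per library, its shape giving the replicate number, and a line at the mean. PLCB1 is near 0 in Par and between 6.04 and 24.5 CPM in the other lines, PLCB4 and PLCB2 are highest in BrM2, PRKCA is highest in LM2, and PRKCE is lowest in Par and highest in BrM2, the lines not overlapping.

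PLCB1, a Gq-activated isoform that is also found in the nucleus, showed the largest difference of the 10 genes. It had 3, 6 and 3 counts in Par replicates 1 to 3, 209, 603 and 625 in LM2, and 82, 442 and 398 in BrM2, or 0.157, 0.29 and 0.118 CPM, 10.4, 24.5 and 23.9 CPM, and 6.04, 19.5 and 19.0 CPM. Every library of LM2 and BrM2 was far above every Par library, and replicate 1 was the lowest within both sub-populations. The log2 fold change was 6.68 ± 0.68 in LM2 vs Par (adjusted p = 0.00054) and 6.28 ± 0.68 in BrM2 vs Par (adjusted p = 0.00047). Without all libraries of replicate 2 these adjusted p were 0.05, no longer under the threshold, and 0.044. Without those of replicate 3 they were 0.043 and 0.034. Because Par held 12 counts of PLCB1 in all, the ratio of the summed, scaled counts was 110.0 with a 95% interval from 62.9 to 214 for LM2 and 87.7 with 50 to 170 for BrM2 (exact binomial, covering counting error only). LM2 and BrM2 overlapped, and their difference of -0.40 ± 0.48 missed the threshold (adjusted p = 0.73). In these bulk libraries a higher level in all cells and a larger share of expressing cells cannot be told apart. The gene lies on chr20:8132266-8884900 (GRCh38, the build of the counts).

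PLCB4, a beta isoform best known from neurons and the retina, is the next phospholipase gene on that chromosome (chr20:9068678-9480808), 183.8 kb beyond PLCB1. Its counts were 7, 26 and 18 in Par, 4, 16 and 9 in LM2, and 45, 355 and 272 in BrM2, which correspond to 0.367, 1.25 and 0.705 CPM, 0.198, 0.651 and 0.344 CPM, and 3.31, 15.6 and 13.0 CPM. The 3 BrM2 libraries lay above all others, replicate 1 again being the lowest in each line, and Par and LM2 overlapped. BrM2 was higher than Par by 3.77 ± 0.68 on the log2 scale (adjusted p = 0.0064), a 13.7-fold difference, and higher than LM2 by 4.71 ± 0.72 (adjusted p = 0.0042). Without all libraries of replicate 2 these adjusted p were 0.10 and 0.096, and without those of replicate 3 they were 0.17 and 0.16. For LM2 vs Par the estimate was -0.94 ± 0.74 (adjusted p = 0.58). Unlike PLCB1, which was high in both sub-populations, PLCB4 therefore differed between BrM2 and LM2 in the direct test.

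PLCB2, an isoform characteristic of blood cells that is activated by G protein beta-gamma dimers as well as by Gq, had 0.943, 0.579 and 0.157 CPM in Par, 1.24, 1.26 and 0.687 CPM in LM2, and 7.58, 3.52 and 3.3 CPM in BrM2. The BrM2 libraries lay above the other 6, and here replicate 1 was the highest in BrM2. The difference was 3.12 ± 0.60 in BrM2 vs Par (adjusted p = 0.0093), and 3.72 without Par replicate 1. Its adjusted p was 0.21 without all libraries of replicate 2 and 0.067 without those of replicate 3. BrM2 vs LM2 gave 2.16 ± 0.56 (adjusted p = 0.049), which RLE scaling (adjusted p = 0.053) or the omission of any library but Par 1 or Par 3 (adjusted p from 0.069 to 0.17) moved to the other side of the threshold. Over all alternatives the adjusted p of that difference ran from 0.00046, with the replicate block, to 0.44. LM2 and Par overlapped, with an estimate of 0.95 ± 0.61 (adjusted p = 0.47). At 4 to 103 counts per library the level was low throughout, and PTPRC, the pan-leukocyte marker, had at most 6 counts in any library.

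PLCB3, a Gq- and beta-gamma-activated isoform, was the main beta gene of all 3 lines. It had 99.98, 88.4 and 69.9 CPM in Par, 114, 72.5 and 72.8 CPM in LM2, and 132, 79.7 and 97.3 CPM in BrM2. All 3 groups overlapped, and the estimates were 0.01 ± 0.27 in LM2 vs Par, 0.26 ± 0.27 in BrM2 vs Par and 0.25 ± 0.27 in BrM2 vs LM2 (adjusted p = 0.99, 0.65 and 0.69).

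Per length of the canonical transcript, PLCB3 made up 98.7% ± 0.403 (SD, n = 3) of the expression of the 4 beta genes in Par, 86.2% ± 6.7 in LM2 and 82.2% ± 8.11 in BrM2. PLCB1 contributed 0.127% ± 0.055 in Par, where its libraries ran from 0.0918% to 0.19%. In LM2 its share was 12.5% ± 6.47 (5.03% to 16.4%), and in BrM2 7.53% ± 4.46 (2.46% to 10.9%). The share was above all Par libraries in each sub-population, by 12.4 and 7.41 percentage points, and the 2-sided exact permutation test gave p = 0.10 for both, the smallest that 3 against 3 libraries allow. Between BrM2 and LM2 the share of PLCB1 overlapped (exact permutation p = 0.30). PLCB4 accounted for 0.678% in Par, 0.317% in LM2 and 6.84% ± 4.7 in BrM2, and PLCB2 for 0.543%, 0.973% and 3.4% ± 1.18. The sum of the 4 genes was 20.8 ± 3.69 CPM per kb in Par, 23.7 ± 4.63 in LM2 and 29.6 ± 4.71 in BrM2.

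**Figure D2:**
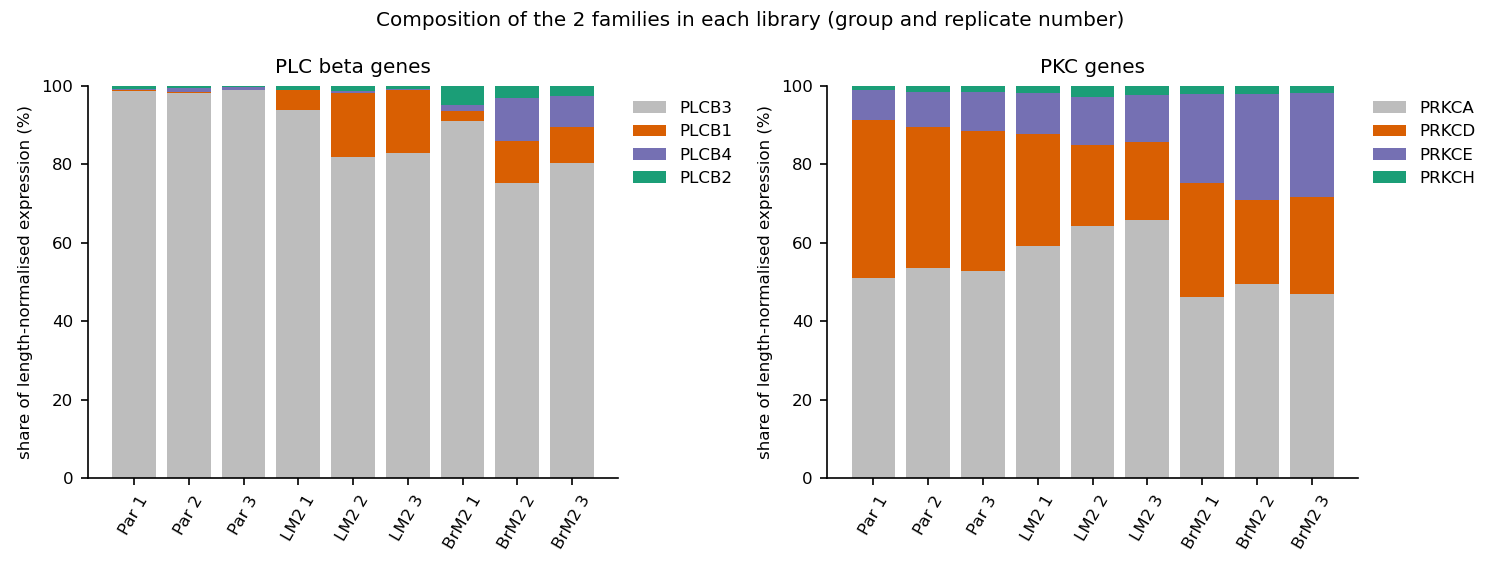
Share (%) of each gene in the length-normalised expression of the 4 PLC beta genes (left) and of the 4 PKC genes (right), with 1 stacked bar per library. The PLCB1 share reaches 16.4% in LM2 and the PRKCE share 26.8% in BrM2, while replicate 1 of LM2 and of BrM2 shows less PLCB1 than replicates 2 and 3.

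PLCG1, the isoform that docks on activated receptor tyrosine kinases, ranged from 160 to 273 CPM over the 9 libraries. Its means were 239 ± 29.4 CPM in Par, 200 ± 62.2 in LM2 and 216 ± 31.2 in BrM2 (SD, n = 3), the groups overlapped, and the estimates lay between -0.26 and 0.11 with adjusted p from 0.66 to 0.86. Without replicate 1, LM2 fell below Par by 0.44 on the log2 scale (adjusted p = 0.011, the lowest over the alternatives, whose highest was 1.0). A stretch of 268 bases (2.78%) of its exons lies opposite exons of ZHX3, and since the counted strand is not given in the sources used here, reads of that stretch cannot be assigned with certainty.

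PLCE1, the Ras-responsive isoform that also acts as an exchange factor for Rap GTPases, had 15.2, 33.1 and 36.4 CPM in Par, 10.4, 24.2 and 30.0 CPM in LM2, and 17.8, 50.2 and 46.8 CPM in BrM2. Replicate 1 was the lowest in each line by a wide margin, and the groups overlapped. Within every replicate number, however, LM2 was below Par and BrM2 above it. With the number as a block, PLCE1 was lower in LM2 than in Par by 0.42 ± 0.13 (adjusted p = 0.030), higher in BrM2 than in Par by 0.40 ± 0.13 (adjusted p = 0.029) and higher in BrM2 than in LM2 by 0.83 ± 0.13 (adjusted p = 0.00081). Without the block the adjusted p was 0.79, 0.70 and 0.43, and over all alternatives it ran from 0.03 to 1.0, from 0.022 to 0.95 and from 0.00081 to 0.90.

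**Figure D3:**
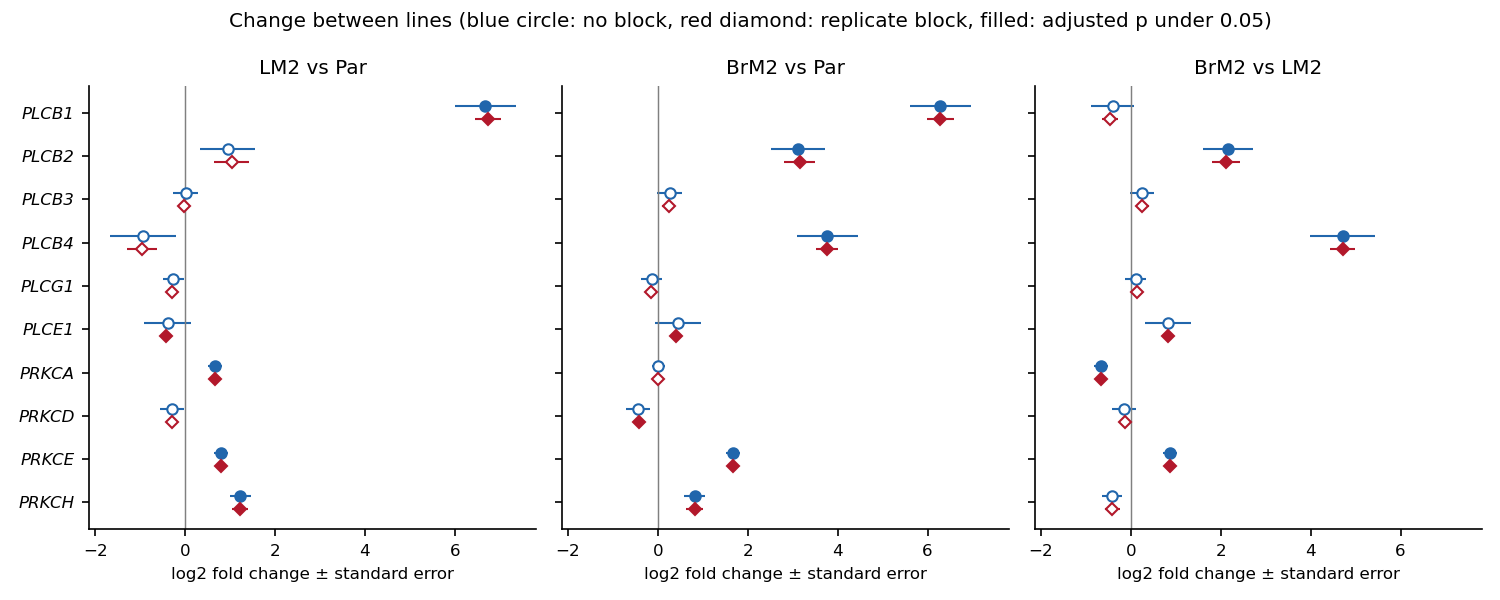
Log2 fold change ± standard error of the 10 genes in the 3 comparisons, without (blue circle) and with (red diamond) the replicate number as a block, filled where the adjusted p is under 0.05. The estimates differ little between the fits while the errors are smaller with the block, and PLCE1 is filled only with the block in each comparison.

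Among the kinases, PRKCE differed between each pair of lines, lowest in Par and highest in BrM2, and PRKCA was higher in LM2 than in either of the other lines. PRKCA encodes PKC alpha, the conventional calcium-dependent isoform and the main target of phorbol esters in many carcinoma lines. It had 301, 260 and 241 CPM in Par, 446, 420.0 and 408 CPM in LM2, and 270.5, 282 and 253 CPM in BrM2. The 3 LM2 libraries were above all others, while Par and BrM2 overlapped. LM2 was higher than Par by 0.67 ± 0.15 (adjusted p = 0.029), a 1.59-fold difference, and BrM2 was lower than LM2 by 0.66 ± 0.15 (adjusted p = 0.032). BrM2 differed from Par by 0.01 ± 0.15 (adjusted p = 0.98). The call in LM2 vs Par was lost when 1 of Par 2, Par 3, LM2 2, LM2 3, BrM2 2 or BrM2 3 was left out (adjusted p from 0.062 to 0.13, log2 fold change from 0.60 to 0.70), and that in BrM2 vs LM2 when any library but Par 1 or LM2 1 was (adjusted p from 0.055 to 0.15). With the block they were 0.00076 and 0.00084, and the alternatives ran from 0.00018 to 0.58 and from 0.00049 to 0.61.

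PRKCE encodes PKC epsilon, a calcium-independent isoform known for promoting cell motility. Its libraries had 29.4, 27.8 and 29.3 CPM in Par, 50.5, 52.2 and 47.9 CPM in LM2, and 85.7, 97.8 and 91.6 CPM in BrM2. The 3 lines formed 3 separate levels with a small spread within each, replicate 1 included. LM2 exceeded Par by 0.80 ± 0.16 (adjusted p = 0.013), BrM2 exceeded Par by 1.67 ± 0.16 (adjusted p = 0.00027), a 3.18-fold difference, and BrM2 exceeded LM2 by 0.87 ± 0.16 (adjusted p = 0.0094). The call of BrM2 vs Par held with any 1 library left out, but not without all libraries of replicate 2 (adjusted p = 0.071) or replicate 3 (0.051). That of LM2 vs Par did not hold without Par 2, Par 3 or LM2 2 (adjusted p from 0.057 to 0.076). That of BrM2 vs LM2 did not hold without LM2 3 or BrM2 2 (adjusted p = 0.051 and 0.054). Omission of replicate 2 from every line removed both of these calls (adjusted p = 0.47 and 0.41, same order). Omission of replicate 3 did too (0.35 and 0.43), as did testing with no filter (0.13 and 0.091).

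PRKCH, the gene of PKC eta, an isoform typical of epithelia, was the lowest of the kinases. It had 2.2, 3.04 and 2.66 CPM in Par (42, 63 and 68 counts), 5.65, 7.28 and 5.65 CPM in LM2 (114, 179 and 148 counts), and 4.71, 5.06 and 4.2 CPM in BrM2 (64, 115 and 88 counts). Par was below both sub-populations with no overlap, and BrM2 was below LM2 with no overlap. LM2 was higher than Par by 1.23 ± 0.23 (adjusted p = 0.011), a call lost without LM2 2 (adjusted p = 0.056). That call was also lost without all libraries of replicate 2 (adjusted p = 0.31) or replicate 3 (adjusted p = 0.25). BrM2 was higher than Par by 0.82 ± 0.23 (adjusted p = 0.047), a call lost on omission of any library but LM2 1 (adjusted p from 0.068 to 0.15), with 0.0049 under the block and a range over the alternatives from 0.0049 to 0.42. The difference between BrM2 and LM2, -0.41 ± 0.22, missed the threshold (adjusted p = 0.36). Exons of PRKCH lie opposite those of TMEM30B over 356 bases (a gene with a mean of 11.9 counts), and 4.08% of its 50-base stretches occur in other genes.

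PRKCD, the gene of PKC delta, an isoform tied to apoptosis and DNA damage responses, went the other way. It had 75.2, 54.9 and 51.2 CPM in Par, 67.4, 42.3 and 39.1 CPM in LM2, and 53.1, 38.6 and 42.2 CPM in BrM2. Within each replicate number Par was the highest, but the groups overlapped, since replicate 1 was high in every line. The estimates against Par were -0.29 ± 0.27 for LM2 and -0.44 ± 0.27 for BrM2 (adjusted p = 0.67 and 0.38). With the block the second was -0.43 ± 0.12 (adjusted p = 0.017, and from 0.017 to 0.86 over the alternatives), and without replicate 1 PRKCD was lower than in Par by 0.38 in each sub-population (adjusted p = 0.044 in LM2 and 0.040 in BrM2).

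Per length, PRKCA was the leading kinase of the 4 in all 3 lines, and PRKCD and PRKCE took similar mean shares in BrM2. PRKCA made up 52.5% ± 1.37 of their summed expression in Par, 63.2% ± 3.4 in LM2 and 47.6% ± 1.75 in BrM2 (SD, n = 3). PRKCD took 37.3% ± 2.65, 22.9% ± 4.72 and 25% ± 3.68 in the same order. PRKCE took 8.92% ± 1.13, 11.7% ± 1.05 and 25.4% ± 2.17, and PRKCH 1.27%, 2.23% and 1.99%. PRKCD was thus above PRKCE in every Par and LM2 library, whereas in BrM2 the pair was at a like share, with PRKCE the higher in replicates 2 and 3 and PRKCD in replicate 1. The shares of PRKCA, PRKCD, PRKCE and PRKCH did not overlap between either sub-population and Par, each at an exact permutation p of 0.10, the smallest possible (0.125 after adjustment over the 15 share tests). The sum of the 4 kinase genes was 56.9 ± 7.9 CPM per kb in Par, 75.3 ± 7.62 in LM2 and 62.9 ± 2.49 in BrM2.

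PRKCA, PRKCE and PRKCH all rose in LM2, and the upstream sequences of PRKCA and PRKCH are shown for that reason, with PRKCA called in LM2 only and PRKCH near its threshold in BrM2 too. Each is the 250 bases before the gene start that the RefSeq table gives (GRCh38.p14, plus strand, 5′ to 3′), where 7 of the 10 genes had an entry. Capitals mark the GC box, GGGCGG or its complement CCGCCC, the site class bound by Sp1-type factors. The PRKCA sequence is chr17:66302363-66302612, and the PRKCH sequence, chr14:61321329-61321578, belongs to a start within the gene as annotated (chr14:61187468-61550976).
PRKCA: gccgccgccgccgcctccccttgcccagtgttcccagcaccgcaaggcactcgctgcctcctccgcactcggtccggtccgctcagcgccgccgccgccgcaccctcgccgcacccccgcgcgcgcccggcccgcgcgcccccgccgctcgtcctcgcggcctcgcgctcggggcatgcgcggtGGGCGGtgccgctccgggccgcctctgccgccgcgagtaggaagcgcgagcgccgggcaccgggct
PRKCH: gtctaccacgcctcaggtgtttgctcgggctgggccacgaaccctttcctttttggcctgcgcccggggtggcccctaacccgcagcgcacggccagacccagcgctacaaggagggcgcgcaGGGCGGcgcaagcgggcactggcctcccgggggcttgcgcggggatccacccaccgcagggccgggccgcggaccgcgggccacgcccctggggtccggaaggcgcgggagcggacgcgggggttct
The PRKCE window (chr2:45651425-45651674), described but not printed, lies within its gene as annotated too (chr2:45651279-46187990). This window is 66.4% G and C and holds 3 GC boxes. The printed ones are rich in G and C (82.0% and 75.2%, against a median of 58.0% over 35116 promoters), and each holds 1 GC box, which 42.6% of all promoters of that length hold. None of the 3 windows holds the phorbol ester response element TGACTCA (4.2% of promoters, either strand), the TATA box TATAAA (10.7%) or the E-box CACGTG (6.3%), which says only that these letters are not in these windows.

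Around the 10 genes, the Gq to PKC pathway was followed through 126 genes in 10 lists ordered by role, of which 85 were tested and PLCG2 was not analysed here. In LM2 vs Par, 9 were higher and 3 lower, in BrM2 vs Par 8 higher and 6 lower, and in BrM2 vs LM2 6 higher and 8 lower. The median log2 fold change of the 85 was -0.02, -0.01 and -0.04, beside 0.01, -0.02 and -0.03 over all tested genes, and for the 10 genes it was 0.34, 0.63 and 0.18. With the replicate block the called genes were 20 higher and 16 lower, 20 and 22, and 17 and 23. Called pathway genes in either direction were thus 14.1%, 16.5% and 16.5% of the 85, beside 8.69%, 13.3% and 8.1% of all tested genes, and with the block 42.4%, 49.4% and 47.1% beside 34.5%, 42.7% and 37.5%. Counts of single lists, with and without the block, are to be read against these shares. Block counts are given in the order LM2 vs Par, BrM2 vs Par and BrM2 vs LM2.

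Of 40 Gq-coupled receptors, 18 were tested, and 6 were called between LM2 and Par and 5 between BrM2 and Par (33.3% and 27.8% of the 18, against 8.69% and 13.3% of all genes). With the block 8, 10 and 12 of the 18 were called. The higher ones in LM2 vs Par were CHRM3, S1PR3, PTGFR and EDNRB, and the lower ones P2RY6 and P2RY2. CHRM3, the M3 muscarinic acetylcholine receptor, had 0.838 to 1.76 CPM in Par, 7.33 to 8.87 in LM2 and 4.12 to 5.9 in BrM2, with log2 fold changes of 2.73 ± 0.32 (adjusted p = 0.0010) and 2.07 ± 0.31 (adjusted p = 0.0026). S1PR3, a receptor for sphingosine-1-phosphate, stood at 3 separate levels, with means of 2.62, 7.03 and 26.7 CPM, and rose by 1.42 ± 0.22 in LM2 and 3.35 ± 0.24 in BrM2 (adjusted p = 0.0047 and 8.5e-05). F2RL2, a thrombin receptor of the protease-activated family, had means of 1.2, 1.04 and 8.1 CPM, and BrM2 exceeded LM2 by 2.96 ± 0.26 (adjusted p = 0.00031) and Par by 2.75 ± 0.26 (adjusted p = 0.00026). P2RY6, a receptor for uridine diphosphate, fell by 3.73 on the log2 scale in LM2 vs Par (adjusted p = 0.0045), with 4, 12 and 2 counts in LM2 and a value of -4.64 without LM2 2, and the BrM2 libraries lay between those of the other lines. Its difference between BrM2 and LM2, 2.43 ± 0.60 (adjusted p = 0.038), was lost when any library but LM2 2 or BrM2 2 was left out (adjusted p from 0.061 to 0.12), and was 3.35 without LM2 2. Outside the naming rule, and chosen after their values were seen because they complete the receptor counts, P2RY2 fell by 2.27 and 1.48 in LM2 and BrM2 vs Par (adjusted p = 0.0038 and 0.019, the second from 0.058 to 0.077 without Par 1, Par 2 or BrM2 2), and 37.5% of its exons lie in an overlapping transcript of the same strand. PTGFR was higher in LM2 by 2.48 ± 0.48 (adjusted p = 0.013, and 0.052 to 0.053 without Par 3, LM2 2 or LM2 3). For EDNRB, LM2 was above Par by 0.78 ± 0.20 (adjusted p = 0.047, a call lost with any 1 library left out, at 0.053 to 0.16) and BrM2 below it by 0.80 (adjusted p = 0.032, lost on omission of any library but Par 1 or LM2 1, at 0.056 to 0.15).

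The Gq class alpha subunits that couple such receptors to PLC beta did not pass the threshold in any comparison without the block, with 3 of 4 tested (0 of 3 also at an unadjusted p under 0.05 and by DESeq2). GNAQ, GNA11 and GNA15 had estimates of -0.65 ± 0.38, -0.77 ± 0.46 and -0.79 ± 0.47 in BrM2 vs Par (adjusted p from 0.35 to 0.37). With the replicate block all 3 were lower there (by 0.70, 0.86 and 0.86), as were 23.2% of all genes. GNA11 was then also lower in LM2 vs Par, and GNAQ and GNA15 in BrM2 vs LM2 (19.1% and 19.7% of all genes). RGS4, which speeds up the switching off of Gq, was the 1 regulator of 5 tested that was called without the block (2, 1 and 4 with it, among them RGS2 in LM2 vs Par and RGS2, RGS3 and GRK3 in BrM2 vs LM2). It had 11.6, 11.7 and 13.3 CPM in Par, 27.2, 36.0 and 44.6 in LM2, and 4.12, 3.92 and 2.87 in BrM2. RGS4 rose in LM2 by 1.56 ± 0.24 (adjusted p = 0.0046) and fell in BrM2 by 1.75 on the log2 scale (adjusted p = 0.0021), so that its directions were opposite.

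**Figure D4:**
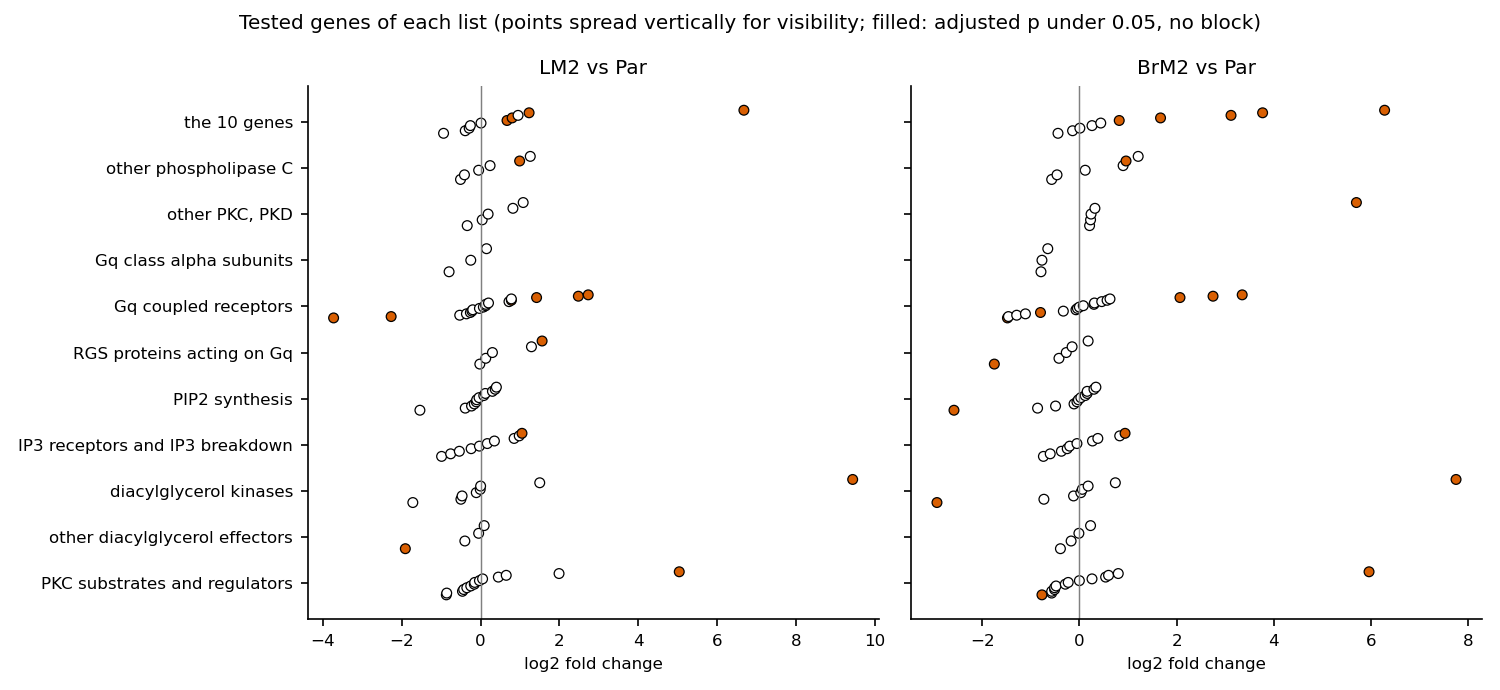
Log2 fold change in LM2 vs Par (left) and BrM2 vs Par (right) of the 10 genes and of the tested genes of each pathway list, with 1 point per gene, filled where the adjusted p is under 0.05. Called genes fall on both sides of 0 in the receptor list, and the points at 9.44 and 7.75 are DGKG, whose Par libraries are all at 0, so that its fitted value is no measured fold.

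In the supply of the substrate, PIP2 synthesis, CDS1 was called of 12 tested genes (3, 5 and 3 with the block). CDS1, which makes the precursor CDP-diacylglycerol, was lower in BrM2 than in Par by 2.58 ± 0.46 (adjusted p = 0.0060), with 0.221, 0.616 and 0.526 CPM against 2.36 to 3.45. Of 10 genes of IP3 receptors and IP3 breakdown, 1 was called in each comparison (5, 5 and 3 with the block). This is 10.0%, beside 8.69%, 13.3% and 8.1% of all tested genes. ITPR1, the type 1 IP3 receptor calcium channel, rose by 1.05 ± 0.24 in LM2 and 0.94 ± 0.24 in BrM2 (adjusted p = 0.029 and 0.033). Its means were 15.8, 32.6 and 30.2 CPM, and both calls were lost in 6 of the 9 fits that left out 1 library, those without a Par library, without LM2 2 and without BrM2 3 among them, the others being LM2 3 for LM2 and BrM2 2 for BrM2 (adjusted p from 0.051 to 0.14). ITPKB, a kinase that removes IP3, was lower in BrM2 than in LM2 by 1.36 ± 0.27 (adjusted p = 0.015, and 0.070 without BrM2 2).

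Among the other phospholipases, PLCD4, a delta isoform, rose by 0.99 ± 0.22 in LM2 and 0.96 ± 0.22 in BrM2 (adjusted p = 0.027 and 0.022), the 1 called of 6 tested (4, 4 and 2 with the block). The call in LM2 was lost when 1 of the Par libraries, LM2 1, LM2 3, BrM2 2 or BrM2 3 was left out, and that in BrM2 when 1 of the Par or BrM2 libraries was (adjusted p from 0.051 to 0.12), and 34.0% of the PLCD4 exons lie opposite ZNF142. Among the other kinases, PRKCQ, the gene of PKC theta, known from T cells and muscle, was the 1 called of 5. It had 3, 3 and 2 counts in Par, 3, 5 and 8 in LM2, and 77, 150 and 165 in BrM2. PRKCQ in BrM2 was 48.0-fold above a floor of 3 counts per library, at or near which Par lay. That value is close to the fitted 52.0-fold difference from Par (adjusted p = 6.7e-05) and is no lower limit. Counting error of the few Par counts is not covered by it. PRKCQ in BrM2 was also higher than in LM2 by 4.88 ± 0.35 (adjusted p = 0.00011). With the block 1, 1 and 3 of the 5 were called.

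Diacylglycerol kinases, which end the diacylglycerol signal, moved in both directions. DGKG had 0 counts in each Par library, 105, 91 and 84 in LM2, and 11, 33 and 30 in BrM2, at least 28.8-fold and 8.8-fold higher than a floor of 3 counts per library (adjusted p = 0.00046 and 0.0010). DGKI, in contrast, was lower in BrM2 than in Par by 2.93 ± 0.63 (adjusted p = 0.015), with means of 4.95 ± 2.43 CPM in Par and 0.621 ± 0.361 in BrM2, a call lost without Par 3 or BrM2 3 (adjusted p = 0.055 to 0.063). With DGKG at its bound the median of the 8 tested kinases stayed at -0.06 in LM2 and 0.04 in BrM2. With the block 4 of the 8 were called in each comparison. Among the other diacylglycerol effectors, the Ras exchange factor RASGRP3 was lower in LM2 than in Par by 1.91 ± 0.26 (adjusted p = 0.0022), with 1.09 to 1.15 CPM against 4.2 to 4.31. In BrM2 it had 3.46 to 5.77 CPM, overlapping Par, and with the block 1, 1 and 2 of the 4 tested effectors were called.

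Of 14 tested substrates, scaffolds and regulators of PKC, 2 were called against Par, while with the block 7, 8 and 5 of the 14 were called. ADD2, beta-adducin, a cytoskeletal PKC substrate, had 4, 0 and 3 counts in Par, 85, 88 and 89 in LM2, and 85, 170 and 155 in BrM2. The ratio of its scaled counts to Par was 34.5 (95% interval 16.5 to 86.6) in LM2 and 66.9 (32.2 to 167) in BrM2 (adjusted p = 0.00067 and 0.00023). The fitted log2 fold changes of ADD2, 5.04 and 5.96, were 5.74 and 6.66 without Par 1. MARCKS, the classical PKC substrate that binds PIP2 at the membrane, fell by 0.77 on the log2 scale in BrM2 vs Par (adjusted p = 0.016, lost without Par 3, BrM2 2 or BrM2 3 at 0.063 to 0.085), with 81.6 to 90.0 CPM against 134 to 164. AKAP12, a scaffold that binds PKC, was lower in BrM2 than in LM2 by 2.23 ± 0.56 (adjusted p = 0.044, and 0.068 to 0.14 when any library but Par 1 or LM2 1 was left out). Its difference between LM2 and Par, 1.99 ± 0.56, was called with the block (adjusted p = 1e-06) and not without it (0.063), and ran to 0.47 over the alternatives. PHLPP1, a phosphatase that acts on PKC, was higher in BrM2 than in LM2 by 1.15 ± 0.23 (adjusted p = 0.016, and 0.052 to 0.076 without LM2 2, LM2 3, BrM2 2 or BrM2 3).

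Around PLCB1 and PLCB4 on chromosome 20, 6 neighbours were tested. Of these, SNAP25 alone was called in LM2 vs Par, JAG1 alone in BrM2 vs Par, and both in BrM2 vs LM2. In the same order, 8.69%, 13.3% and 8.1% of all genes were called. TMX4, which precedes PLCB1, was tested and differed by 0.15 in LM2 and -0.29 in BrM2 relative to Par (adjusted p = 0.79 and 0.45). HAO1, LAMP5 and PAK5 had at most 1 count in any library. Farther on, SNAP25, a synaptic membrane fusion gene, had 0.524 to 1.4 CPM in Par, 3.37 to 7.53 in LM2 and 0.368 to 0.396 in BrM2. It was higher in LM2 than in Par by 2.76 ± 0.43 (adjusted p = 0.0047) and lower in BrM2 than in LM2 by 3.96 ± 0.48 (adjusted p = 0.0013), the reverse order to PLCB4. ANKEF1, MKKS and SLX4IP passed the threshold in no comparison, and JAG1, a Notch ligand, was higher in BrM2 than in Par by 0.87 ± 0.16 (adjusted p = 0.0076) and than in LM2 by 0.76 ± 0.16 (adjusted p = 0.021). SNAP25 and JAG1 are named for their position on the chromosome, not by the naming rule.

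By likeness over the 9 libraries, the pattern of PLCB1 (log2 CPM with a prior count of 2) was closest to those of IL13RA2, an interleukin-13 receptor chain (Pearson r = 0.991), the gene ENSG00000272622 (0.991), ALDH5A1, an enzyme of GABA breakdown (0.989), PPM1E, a protein phosphatase (0.989), and SRGN, the proteoglycan serglycin (0.987). These values are a description over 9 libraries that share lines and replicate numbers. IL13RA2 had 0 counts in each Par library, 95, 338 and 346 in LM2, and 38, 145 and 102 in BrM2. Like PLCB1 it was lowest in replicate 1 within each sub-population. With ranks in place of values (Spearman) 0 of these 5 genes stayed among the 5 closest, and 2 did once the mean of each replicate number was removed.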

How the data were processed

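RNA-seq libraries of Par, LM2 and BrM2 were made by the authors with a stranded mRNA kit and sequenced as paired ends, and the reads were aligned to hg38 and counted per GENCODE gene with STAR 2.7.0. The authors deposited these values as raw counts per gene, without normalization, and they are the values used here. A second deposited table holds the authors' own DESeq2 comparisons (log2 fold changes and adjusted p-values) and was not used. Of 58887 rows, 3 repeated an identifier with identical counts and were kept once. Genes were filtered by a rule written after HTSFilter (threshold 47.15 on the largest normalized count, 13055 genes kept, holding 99.64% to 99.78% of counts), scaled by TMM and tested with the 2-sided quasi-likelihood test of edgeR 4.0.16 (R 4.3.3, limma 3.58.1), in a model of line only over all 9 libraries, with Benjamini-Hochberg adjustment. The test was checked on simulated data. Shares were compared by exact permutation in scipy 1.17.1, using canonical transcript lengths of GENCODE v44. Positions, promoters and motifs come from RefSeq.

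Alternatives were RLE scaling, DESeq2 1.42.0, edgeR's filterByExpr, no filter, the replicate number as a block, each library or replicate number left out, and other lengths. The deviations of same-numbered libraries from their line means correlated at 0.23 to 0.90 in all 9 pairs. The block takes the numbers as pairing the libraries, which the sources used here do not state. Libraries numbered 2 and 3 of different lines correlated too, at 0.389 (Par 2 with LM2 3) to 0.801 (LM2 3 with BrM2 2). The values thus set replicate 1 apart, while a pairing of numbers 2 and 3 is not shown. The common dispersion was 0.11 without and 0.0207 with the block.

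The 10 genes, the pathway lists and the markers were chosen with earlier results of these data known. Named were all 10 genes, at most the 4 most changed called genes of each list, and the 5 genes most like PLCB1. A line with at most 3 counts in every library was taken as at the floor.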

Additional observations from a re-analysis of the deposited data

Results flagged for a closer look

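The effects of the 2 sub-populations relative to Par differed by a direct test of BrM2 vs LM2 (edgeR's quasi-likelihood test, adjusted p under the threshold) for 4 of the 10 genes and for 12 pathway genes named by the rule, given here as BrM2 minus LM2 on the log2 scale. At that threshold 8.1% of all tested genes were called, and 14 of the 85 tested pathway genes (16.5%). Of the 10 genes, PLCB4 (4.71), PLCB2 (2.16) and PRKCE (0.87) were higher in BrM2 and PRKCA (-0.66) was lower. Higher in BrM2 were also PRKCQ (4.88), the protease-activated receptor gene F2RL2 (2.96), P2RY6 (2.43), RASGRP3 (2.14), S1PR3 (1.92) and PHLPP1 (1.15). Lower in BrM2 were RGS4 (-3.31), DGKI (-2.46), AKAP12 (-2.23), DGKG (-1.68), ITPKB (-1.36) and MARCKS (-0.82). Both phospholipase genes and PRKCE were thus on the BrM2 side, and PRKCA on the LM2 side. RGS4 was the 1 gene of the 16 that was called in opposite directions against Par. Outside the rule, PTGFR (-2.55, adjusted p = 0.013, and 0.058 without BrM2 3) and EDNRB (-1.58, adjusted p = 0.0020) were lower in BrM2 than in LM2 as well, and EDNRB was also called in opposite directions against Par. Of the 16 differences, those of PLCB4, PRKCQ, F2RL2, RASGRP3, S1PR3 and RGS4 held with any 1 library left out, and those of PLCB2 (adjusted p = 0.049), DGKI (0.045), AKAP12 (0.044) and P2RY6 (0.038) lay closest to the threshold.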

How the results depend on the processing

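Of the 30 estimates for the 10 genes, 30 kept their direction and side of the threshold with DESeq2 and with filterByExpr, 29 with RLE scaling and 25 without a filter. The replicate block left 25 as they were, added 4 calls and reversed 1 small estimate, and it changed no other call of the 10 genes and none of the 33 called estimates of the other named genes. Counts of called genes depended far more on the replicate number. With the block, 4510, 5577 and 4896 genes were called in LM2 vs Par, BrM2 vs Par and BrM2 vs LM2, against 1134, 1733 and 1057 without it, and 36, 42 and 40 pathway genes against 12, 14 and 14. By DESeq2, 1893 genes and 19 pathway genes were called between LM2 and Par, and 1824 genes between BrM2 and LM2. With no filter 2 of the 10 were called between LM2 and Par, and 2 between BrM2 and LM2. Together, the block and the omission of replicate 1, an alternative chosen after seeing the data, gave 3651, 4808 and 3725 genes, and 30, 35 and 31 pathway genes. Leaving out libraries or replicate numbers gave 70 to 4327, 159 to 5274 and 53 to 4257 genes, 0 to 6, 1 to 7 and 0 to 5 of the 10 genes, and 1 to 34, 4 to 38 and 1 to 33 pathway genes, the highest without replicate 1 and the lowest without replicate 2 (for the 10 genes in the BrM2 comparisons equally without replicate 3). Called genes among the 10 changed no direction. The estimates that changed sign were small and uncalled. PLCB3 in LM2 vs Par was -0.02 with the block, -0.12 with the block and without replicate 1, and from -0.25 to 0.16 with libraries left out. PRKCA in BrM2 vs Par ran from -0.06 to 0.11, PLCG1 in BrM2 vs LM2 from -0.03 to 0.40, and PRKCD in BrM2 vs LM2 from -0.30 to 0.13, with 0.01 under the block without replicate 1. The cause of these shifts was not tested. With all annotated exons as the length, the PLCB1 share differed from Par by 6.49 points in LM2 and 4.05 in BrM2, and with no division by length by 18.9 and 11.4. Of the 5 genes most like PLCB1, 0 remained with Spearman and 2 after removal of the replicate means. Below about 20 counts, as for PLCB1 in Par, PLCB2 in Par and PLCB4 in LM2, counting error limits the fold changes.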
